A study of Mus musculus with 6 samples.

Results

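The genes described here encode the cytosolic chaperonin CCT (also called TRiC) and cytosolic heat shock proteins of the Hsp70 and Hsp90 families, 10 genes in all: Tcp1, Cct2, Cct3, Cct4, Cct5, Cct7, Cct8, Hspa8, Hsp90aa1 and Hsp90ab1. They were chosen by name, as every non-control array probe annotated to one of these symbols, which gave 25 probes of 10 genes among 37074 gene names on the array. RNA of LSK cells (Lineage marker-, Sca1+ and cKit+), the bone marrow fraction that holds haematopoietic stem cells and early progenitors, was hybridised to 6 one-colour Agilent arrays. The 3 control arrays came from Atg5w/w;VaviCre+ mice and the 3 others from Atg5f/f;VaviCre+ mice, called Atg5f/f;Vav below, all of the C57BL/6 strain and 6 to 8 days old. Both groups carry the Vav-iCre transgene, which recombines floxed alleles in haematopoietic tissue from before birth, so that the groups differ in the floxed Atg5 alleles, and Atg5 is needed to form autophagosomes. Whether a sample was 1 mouse or a pool of mice is not stated in the sources used here, and p-values therefore measure the spread between these samples only.

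CCT is a chaperone built of stacked rings of related but distinct subunits, each encoded by its own gene, which takes newly made actin, tubulin and other proteins into its cavity and closes over them while they fold. Prefoldin hands it actin and tubulin chains. Hspa8, the constitutive Hsp70 also known as Hsc70, binds short hydrophobic stretches of client proteins in cycles driven by ATP and recognises the substrates of chaperone-mediated autophagy, whereas Hsp90 acts later on kinases, steroid receptors and other nearly folded clients. In cells under proteotoxic stress the factor Hsf1 raises inducible chaperones such as Hspa1a, Hspa1b and Hsp90aa1, while CCT subunits are also made in growing cells without such stress.

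The sequences that the values below turn on are shown first. Tcp1, which encodes the alpha subunit, had 3 probes that gave different answers, and they are printed with every TAA, TAG and TGA triplet in capitals, since these would stop translation in 1 of the forward reading frames.
Tcp1 mRNA probe (chr17:13116096-13116155, mm9, plus strand): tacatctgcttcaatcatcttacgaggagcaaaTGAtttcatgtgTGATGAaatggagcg
Tcp1 first Ensembl transcript probe (chr17:13113387-13113446, mm9, plus strand): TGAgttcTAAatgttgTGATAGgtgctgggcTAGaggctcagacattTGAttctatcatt
Tcp1 second Ensembl transcript probe (chr17:13112975-13113034, mm9, plus strand): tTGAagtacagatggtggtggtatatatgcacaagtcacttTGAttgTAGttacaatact
The mRNA probe left 2 of its 3 forward frames free of stops, the first Ensembl probe left 0 and the second left 1. The annotation of the array places the mRNA probe on the RefSeq transcript NM_013686, the first Ensembl probe on ENSMUST00000134665 and the second on ENSMUST00000133003.

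Hspa8 had 4 probes, all on the RefSeq mRNA NM_031165, and they are shown in the order of their start in that transcript because their changes differed in size.
Hspa8 probe starting at base 405: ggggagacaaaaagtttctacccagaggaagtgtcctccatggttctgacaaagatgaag
Hspa8 probe starting at base 950: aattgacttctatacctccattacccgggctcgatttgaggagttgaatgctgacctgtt
Hspa8 probe starting at base 1219: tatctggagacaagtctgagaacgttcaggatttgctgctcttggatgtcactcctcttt
Hspa8 probe starting at base 1812: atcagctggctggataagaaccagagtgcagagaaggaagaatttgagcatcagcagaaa
The GC content of the 4 probes was between 45% and 46.7%, so base composition was nearly the same in all of them. Of the 25 probes of the 10 genes, 1 (of Cct2) shared a run of 20 bases with a probe listed under another name, NAP068632-1. The GC content of all 25 ran from 35% to 53.3%.

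Signals are given as log2 of the background-subtracted signal over the 75th percentile of the same array, so that 0 is that percentile, and a gene is represented by its brightest tested probe. Probes differ in how well they bind, so levels were compared between arrays and not between genes. All 6 arrays lie on 1 slide and were read in 1 scan, with the controls in one row of the slide and the Atg5f/f;Vav arrays in the other, so that row and genotype cannot be told apart. The share of spots well above background was 59.9%, 59.4% and 59.9% in control replicates 1 to 3. It was lower, at 56.7%, 55.8% and 53.6%, in Atg5f/f;Vav replicates 1 to 3. No spot was saturated. Across the array the 2 groups differed widely: of 32074 probes tested, 34.4% passed an adjusted p of 0.05 in either direction, with 5540 higher and 5484 lower in the Atg5f/f;Vav arrays. The Atg5 probe itself lay at 1.10, 0.93 and 1.06 in control replicates 1 to 3 and at 1.46, 1.51 and 1.74 in the arrays labelled Atg5f/f;Vav, a rise of 0.54 ± 0.12 (SE; adjusted p = 0.0209). It starts at base 2251 of the transcript NM_053069 (chr10:44083997-44084056, mm9), the exon that the floxed allele loses is not given in the sources used here, and a probe outside it cannot check the deletion. The labels were therefore taken as given, and every direction below refers to the arrays labelled Atg5f/f;Vav.

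All 10 genes were higher in the Atg5f/f;Vav arrays, by between 1.27-fold (Hsp90ab1) and 1.98-fold (Cct3). All 10 passed the test, with adjusted p-values from 0.0149 to 0.0478, and in all 10 the lowest Atg5f/f;Vav array lay above the highest control array. Of the 20778 genes tested, 18.7% were called higher and 29.6% were higher without overlap between the groups. The median log2 fold change of the 10 genes was 0.66, against -0.03 over all genes tested. Genes with bright probes were called higher more often: of the 2078 genes in the top 10% by mean signal, 39.1% were called higher and the median change was 0.25, and 8 of the 10 genes were among them.

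**Figure D1:**
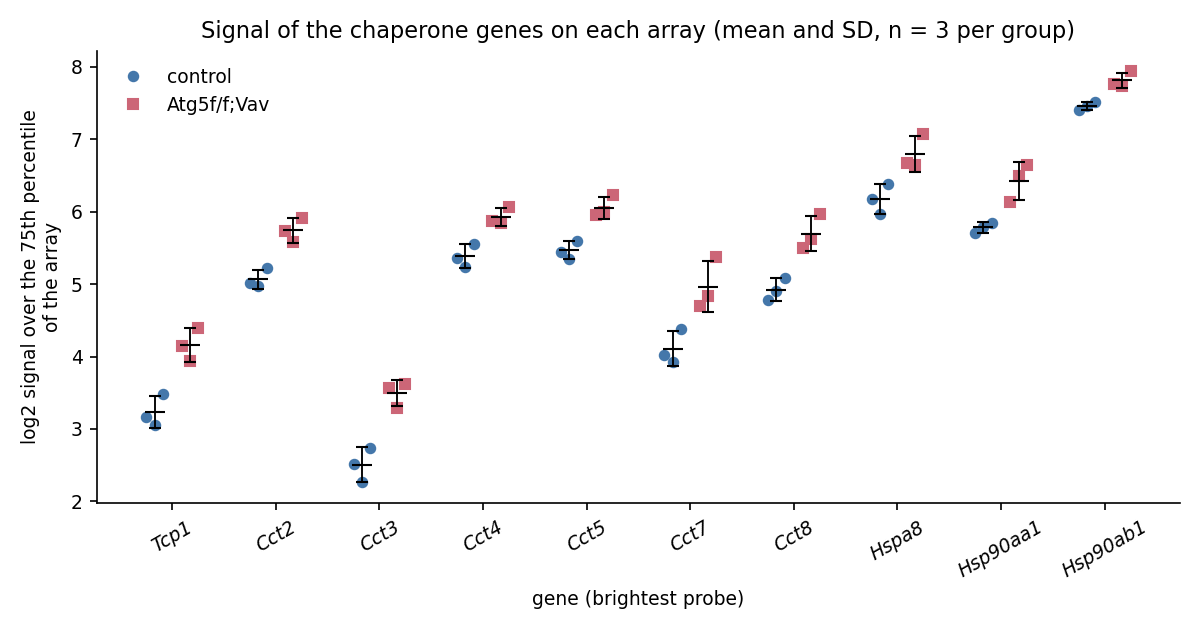
Log2 signal over the 75th percentile of the array (y axis) for the brightest probe of each gene (x axis) on the 3 control and 3 Atg5f/f;Vav arrays, with the mean and SD in black. In each of the 10 genes the Atg5f/f;Vav arrays lie above the control arrays, with gaps between the groups of 0.22 to 0.55.

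Among the CCT subunits, Cct3 (gamma subunit) lay at 2.52, 2.26 and 2.74 in the controls and at 3.57, 3.29 and 3.62 in the Atg5f/f;Vav arrays. It had the largest change of the 10 genes, 0.99 ± 0.16 (SE; 95% interval 0.60 to 1.37). Tcp1 (alpha subunit) lay at 3.16, 3.05 and 3.48 against 4.14, 3.94 and 4.40 on its mRNA probe, and rose by 0.93 ± 0.17 (adjusted p = 0.0161). In both genes the gap between the nearest arrays of the groups was larger than the SD of either group.

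Cct7, the eta subunit, lay at 4.02, 3.92 and 4.38 in the controls and at 4.70, 4.83 and 5.37 in the Atg5f/f;Vav arrays. It was the most variable of the 10 genes within the Atg5f/f;Vav group (SD 0.35, n = 3), because replicate 3 stood above the other two, and its rise was 0.86 ± 0.21 (adjusted p = 0.0246). Cct8 (theta subunit) lay at 4.78, 4.90 and 5.09 against 5.50, 5.62 and 5.97 and rose by 0.78 ± 0.16 (adjusted p = 0.0178). The groups were 0.33 apart at their nearest arrays for Cct7 and 0.41 apart for Cct8.

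The remaining subunits rose less. Cct2 (beta subunit) lay at 5.01, 4.97 and 5.22 in the controls and at 5.73, 5.58 and 5.92 in the Atg5f/f;Vav arrays, a change of 0.68 ± 0.13. Cct5 (epsilon subunit) lay at 5.45, 5.35 and 5.60 against 5.95, 5.99 and 6.23, a change of 0.59 ± 0.13. Cct4 (delta subunit) gave the smallest change of the subunits in the set, 0.54 ± 0.13, from 5.36, 5.23 and 5.56 in the controls to 5.87, 5.84 and 6.07. The 95% intervals of the changes of Cct3 and Cct4, 0.60 to 1.37 and 0.23 to 0.85, overlapped, and the difference between subunits was not tested.

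The zeta subunit is encoded by Cct6a in most tissues and by Cct6b mainly in testis, and neither was in the set. Cct6a rose like its partners, from 4.88, 4.85 and 5.10 in the controls to 5.49, 5.53 and 5.84 in the Atg5f/f;Vav arrays (0.67 ± 0.14, adjusted p = 0.0182). Cct6b went the other way, from -3.24, -2.82 and -3.27 to -3.79, -4.17 and -4.05, and fell by 0.89 on the log2 scale (adjusted p = 0.0167). Its probe was dim but well above background on all 6 arrays, and the fall did not pass the test under quantile normalisation (-0.58, adjusted p = 0.0502), normexp background correction (-0.26, adjusted p = 0.0769) or spike-in scaling (-0.35, adjusted p = 0.577).

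Hspa8 lay at 6.18, 5.97 and 6.38 in the controls and at 6.67, 6.64 and 7.08 in the Atg5f/f;Vav arrays on its brightest probe, and rose by 0.62 ± 0.17 (1.54-fold, adjusted p = 0.0317). The 4 probes printed above all rose. Ordered by their start in the transcript, their log2 changes were 0.63, 1.02, 0.98 and 0.62, so that the inner probes gave the larger changes and the outer ones, the brightest probe included, the smaller. All 4 passed the test, with standard errors from 0.15 to 0.21, and the differences between them were not tested.

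Hsp90aa1, the stress-inducible cytosolic Hsp90, lay at 5.71, 5.79 and 5.85 in the controls and at 6.14, 6.5 and 6.65 in the Atg5f/f;Vav arrays, a rise of 0.65 ± 0.15 (adjusted p = 0.0231). Hsp90ab1, the constitutive one, lay at 7.41, 7.46 and 7.52 against 7.76, 7.74 and 7.94, a rise of 0.35 ± 0.11. Hsp90ab1 had the smallest change of the 10 genes and the weakest call (adjusted p = 0.0478), although its 3 control arrays agreed within an SD of 0.05.

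The change of Hsp90aa1 relative to Hsp90ab1 was examined within each array, where any scaling of the whole array drops out. The log2 difference of the 2 probes was -1.70, -1.67 and -1.66 in the controls and -1.62, -1.24 and -1.29 in the Atg5f/f;Vav arrays. The mean difference was 0.30 higher in the Atg5f/f;Vav arrays, and the 2-sided exact permutation test gave p = 0.1, the smallest value that 3 against 3 arrays allow. The groups did not overlap on this scale, but Atg5f/f;Vav replicate 1 lay next to the controls. After quantile normalisation that array, at -1.74, lay below all controls, and the difference was 0.11 (exact permutation p = 0.5).

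**Figure D2:**
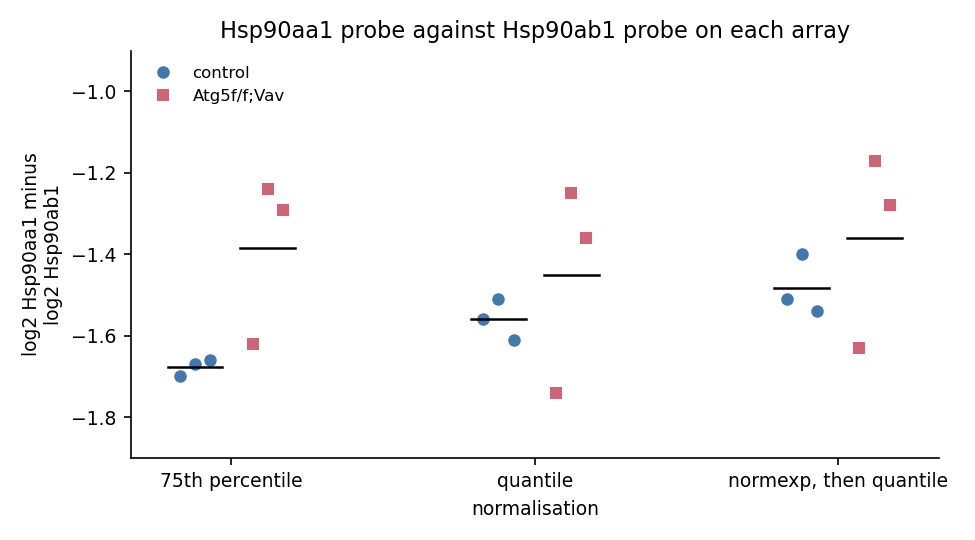
Log2 signal of the Hsp90aa1 probe minus that of the Hsp90ab1 probe on each array (y axis) under 3 normalisations (x axis), with group means as black lines. Replicates 2 and 3 of the Atg5f/f;Vav group, at -1.24 and -1.29 under the 75th percentile, lie above the controls under all 3, and replicate 1 lies above them only under the 75th percentile scaling.

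Of the 25 probes, 24 were well above background on at least 3 arrays and were tested, and the remaining one, an Hsp90aa1 probe on the expressed sequence tag BG864327, was well above background on none. All 20 tested probes on RefSeq mRNAs were called higher, with log2 changes from 0.35 to 1.02, where 17.3% of all tested probes were called higher. Genes with several mRNA probes gave similar values for Cct3 (1.02, 0.99 and 0.95) and more scattered ones for Cct4 (0.46, 0.61 and 0.54) and Cct5 (0.80 and 0.59). The 20 probes include the 10 that stand for the genes, and probes of 1 gene share their RNA, so they are not separate evidence.

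Of the 4 tested probes on other transcripts, both of Tcp1 gave differences close to 0. The first Ensembl transcript probe of Tcp1 lay at 0.69, 0.83 and 0.76 in the controls and at 0.60, 0.82 and 0.96 in the Atg5f/f;Vav arrays, with a change of 0.03 ± 0.13 (adjusted p = 0.862). The second lay at -2.12, -1.91 and -1.96 against -2.07, -1.96 and -1.57, with a change of 0.13 ± 0.16 (adjusted p = 0.53). In both the groups overlapped, while on the mRNA probe they were 0.47 apart. A Cct4 probe on the cDNA AK011873 had a change of 0.39 ± 0.13 and missed the threshold (adjusted p = 0.0546), close to the 0.46 ± 0.14 of the least changed Cct4 mRNA probe (adjusted p = 0.0422). A Cct8 probe on ENSMUST00000177301 rose by 0.93 ± 0.17. Averaging all tested probes of each gene left 9 of the 10 genes called, with Tcp1 at 0.36 (adjusted p = 0.0737) as the exception. With this averaging 3463 of all 20778 genes were called higher.

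**Figure D3:**
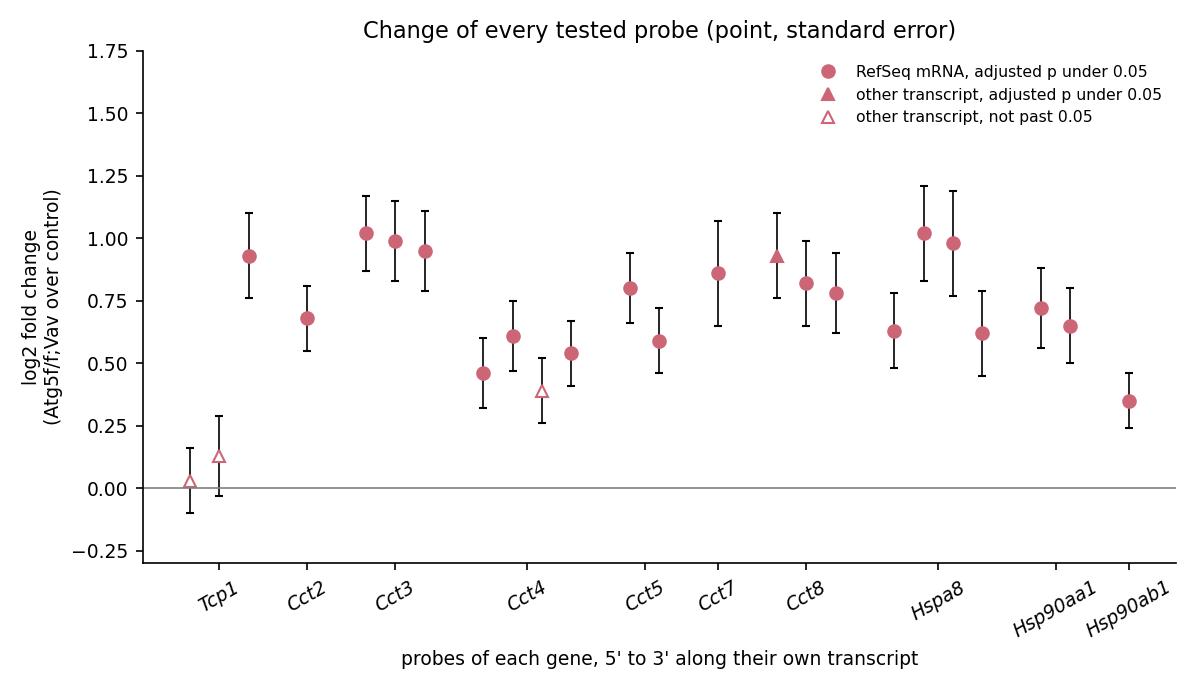
Log2 fold change with its standard error (y axis) of each of the 24 tested probes, grouped by gene and ordered by start within their own transcript (x axis); filled symbols passed an adjusted p of 0.05. All 20 probes on RefSeq mRNAs (circles) lie between 0.35 and 1.02, and the 2 triangles near 0 are the Ensembl transcript probes of Tcp1.

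The 10 genes also moved together between arrays of the same group. Control replicate 3 was the highest control in 10 of 10 genes, and Atg5f/f;Vav replicate 3 the highest of its group in 10 of 10. The share of all genes with this order was not computed, so it is not shown to be a trait of the set. Cct6a, the mitochondrial chaperones Hspd1 and Hspa9 and the proliferation genes Top2a and Plk1 had the same order, and Pfdn5 did not. The median of the centred signals was -0.40, -0.43 and -0.17 in the controls and 0.19, 0.24 and 0.57 in the Atg5f/f;Vav arrays, so replicates within a group were up to 0.38 apart on a scale where the group difference was 0.66. Every signal is set against the 75th percentile of its own array, which all 10 genes share, and a shift of that percentile moves them together.

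The gene outside the set whose centred profile lay nearest to the median profile of the 10 was Cct6a, with a root mean square difference of 0.0110 over the 6 arrays. It was followed by Cox7b, a subunit of cytochrome c oxidase, at 0.0168 and by the GTPase gene Gpn2 at 0.02. The probes named NAP030161-1 and A430005L14Rik came next, at 0.0217 and 0.0241. With 6 arrays and a common shift between groups, many genes have a like profile: even Cct5, the nearest member, at 0.0567, had 282 genes outside the set closer to the median profile than itself.

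RefSeq promoters (assembly GRCm38.p6, 250 bases before to 50 after each start) were at hand for 6 of the 10 genes, all of them CCT subunits, with 8 promoters in all. The first 250 bases of the Cct7 and Cct3 promoters are shown because they held the most copies of CCAAT, the box bound by NF-Y; capitals mark CCAAT or its reverse complement ATTGG.
Cct7 promoter (chr6:85451255-85451504, GRCm38.p6, plus strand): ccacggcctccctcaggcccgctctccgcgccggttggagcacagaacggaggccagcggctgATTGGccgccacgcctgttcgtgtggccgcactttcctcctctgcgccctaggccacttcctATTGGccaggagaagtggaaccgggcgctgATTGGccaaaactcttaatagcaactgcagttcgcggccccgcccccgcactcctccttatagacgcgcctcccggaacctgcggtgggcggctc
Cct3 promoter (chr3:88296885-88297134, GRCm38.p6, plus strand): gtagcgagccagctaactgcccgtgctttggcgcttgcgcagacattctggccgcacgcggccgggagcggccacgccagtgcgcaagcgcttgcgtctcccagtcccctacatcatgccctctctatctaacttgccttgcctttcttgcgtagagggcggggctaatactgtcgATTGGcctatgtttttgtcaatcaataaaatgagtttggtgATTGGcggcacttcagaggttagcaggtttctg
Cct7 held 3 copies, Cct3 held 2 and Tcp1 held 1. In the whole windows CCAAT stood on either strand in 3 of 8 promoters (3 of 6 genes). The share of promoters was like the 37.4% of all 32851 promoters and the 37.9% of the 14342 promoters of genes tested here. GGGCGG, the core of the GC box, stood on either strand in 7 of 8 promoters (all 6 genes). This compares, per promoter, with 35.7% of all promoters and 56.3% of those of genes tested here. The palindromes GAANNTTC and TTCNNGAA, pairs of the units that make up heat shock elements, stood in 1 of the 8 promoters each. They stood in 7.86% and 8.52% of all promoters, and in 5.99% and 7.24% of those of genes tested here. CACGTG, the E-box, stood in 0 of 8, against 7.15% of all promoters and 9.35% of those of genes tested here. These are matches of letters within these windows and were not tested.

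The wider chaperone network and the actin and tubulin clients of CCT were described with 9 lists of 105 genes. Of these 92 were tested, 51 were called higher and 3 lower. The client list held 15 of the genes and 10 of the higher calls. The split was 41 higher and 8 lower with the percentile over probes detected on all arrays, beside 2745 and 5155 of all 20778 genes. It was 43 and 7 after normexp background correction, beside 3513 and 3337. After quantile normalisation it was 31 and 3, beside 2886 and 2407. Scaling to the spike-in controls gave 37 and 0, beside 2693 and 310. Rises were spread over co-chaperones, other Hsp70 genes, the chaperones of the endoplasmic reticulum and mitochondria, and tubulins. Only 2 of 8 small heat shock proteins and 3 of 6 genes of heat shock factors and their binding protein were tested. No gene of these 2 lists was called, but they are too few to set against the share of all genes. The median log2 change over each list is given beside its count. Both are to be read against the main fit over all genes: median -0.03, 18.7% called higher and 15.3% called lower. Counts after quantile normalisation are to be read against the 2886 higher and 2407 lower of all genes. Without control replicate 1, and likewise without control replicate 2, 1 of these 92 genes passed, the tubulin gene Tuba8 in both cases.

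Of 16 genes of prefoldin, the tubulin cofactors and other partners of CCT, 15 were tested and 10 rose (median 0.43). After quantile normalisation 3 rose and 1 fell. Pfdn6, a prefoldin subunit, rose by 0.93 ± 0.18, from 2.39 ± 0.14 (SD, n = 3) in the controls to 3.32 ± 0.31. Pfdn4, another subunit, rose by 0.68 ± 0.13 and Pdcd5, a CCT-binding protein, by 0.65 ± 0.13. The prefoldin subunit Pfdn5, in contrast, lay at 4.12 ± 0.05 and 4.13 ± 0.09 (SD, n = 3), and it is named here after its value was seen; its difference of 0.01 became -0.33 after quantile normalisation, -0.34 after normexp (called lower, adjusted p = 0.0401) and 0.55 after scaling to the spike-in controls.

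Among 8 other genes of cytosolic Hsp70 and Hsp110, 5 were tested and all 5 rose (median 0.66). Hsph1, an Hsp110 that helps Hsp70 exchange ADP for ATP, rose by 0.98 ± 0.24, its relative Hspa4 by 0.93 ± 0.17 and Hspa14, an Hsp70 at the ribosome, by 0.66 ± 0.13. The classical inducible Hsp70 genes could not be tested: the Hspa1a probe was well above background on 0 of 6 arrays and the Hspa1b probe on 1, a control.

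Of 20 Hsp40 proteins and nucleotide exchange factors, which start and end the Hsp70 cycle, all were tested, 8 rose and 1 fell (median 0.31), and 2 rose and 1 fell after quantile normalisation. The exchange factors Bag2 and Bag1 rose by 0.91 ± 0.18 and 0.70 ± 0.14, and the Hsp70 cochaperone St13 by 0.58 ± 0.16. Dnaja4, an Hsp40, fell by 0.61 on the log2 scale (adjusted p = 0.0161), and lay at -0.07 (adjusted p = 0.93) after scaling to the spike-in controls.

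Of 22 Hsp90 co-chaperones, all were tested, 11 rose and 1 fell (median 0.40), and 7 rose and 1 fell after quantile normalisation. The largest rises were those of Aarsd1 (0.88 ± 0.14), of Ruvbl2, an ATPase of the R2TP complex (0.86 ± 0.16), and of Stip1, which links Hsp70 to Hsp90 (0.81 ± 0.17). Cdc37l1, a relative of the kinase co-chaperone Cdc37, fell by 0.45 on the log2 scale (adjusted p = 0.0425), with the sign turned to 0.09 (adjusted p = 0.904) after scaling to the spike-in controls.

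Of 8 small heat shock proteins Hspb6 and Cryab were tested and neither passed. Of 6 genes of heat shock factors and their binding protein, 3 were tested. In limma 0 of these 5 genes passed, and 0 reached an unadjusted p under 0.05. Cryab, at -0.36 (adjusted p = 0.111), passed with the percentile over probes detected on all arrays (-0.52, adjusted p = 0.0438) and turned to 0.18 after scaling to the spike-in controls (adjusted p = 0.799). Hsf1, the main activator of the heat shock response, lay at 1.94, 1.73 and 1.90 in the controls and at 2.05, 1.96 and 2.18 in the Atg5f/f;Vav arrays, a difference of 0.21 ± 0.12 (adjusted p = 0.202). Hsf2 lay at -0.66, -0.71 and -0.51 against -0.75, -0.91 and -0.99, a difference of -0.26 ± 0.12 (adjusted p = 0.127), which passed the test when the percentile was taken over probes detected on all arrays (-0.41, adjusted p = 0.0323) and turned to 0.28 after scaling to the spike-in controls (adjusted p = 0.663). The groups did not overlap in either gene, and 55.9% of all genes did not overlap.

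Of 8 paralogues in the endoplasmic reticulum and mitochondria, 6 rose (median 0.82). The mitochondrial chaperonin subunits Hspd1 and Hspe1, counterparts of CCT in that organelle, rose by 1.04 ± 0.20 and 0.90 ± 0.18, and mitochondrial Hsp70, Hspa9, by 0.88 ± 0.17. Among 15 actin and tubulin genes, the classical clients of CCT, 10 rose (median 0.64). The largest were Tuba8 (2.78 ± 0.29), Tubb3 (2.38 ± 0.59, SD 1.33 within the Atg5f/f;Vav group) and Tubb2a (1.62 ± 0.29). The cytoplasmic actins Actb and Actg1, named here after their values were seen, gave differences of -0.03 ± 0.12 and 0.03 ± 0.11, which became 0.51 and 0.57 after scaling to the spike-in controls. Actg1 turned to -0.27 after quantile normalisation (adjusted p = 0.0693) and after normexp, where it was called lower (adjusted p = 0.0322).

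**Figure D4:**
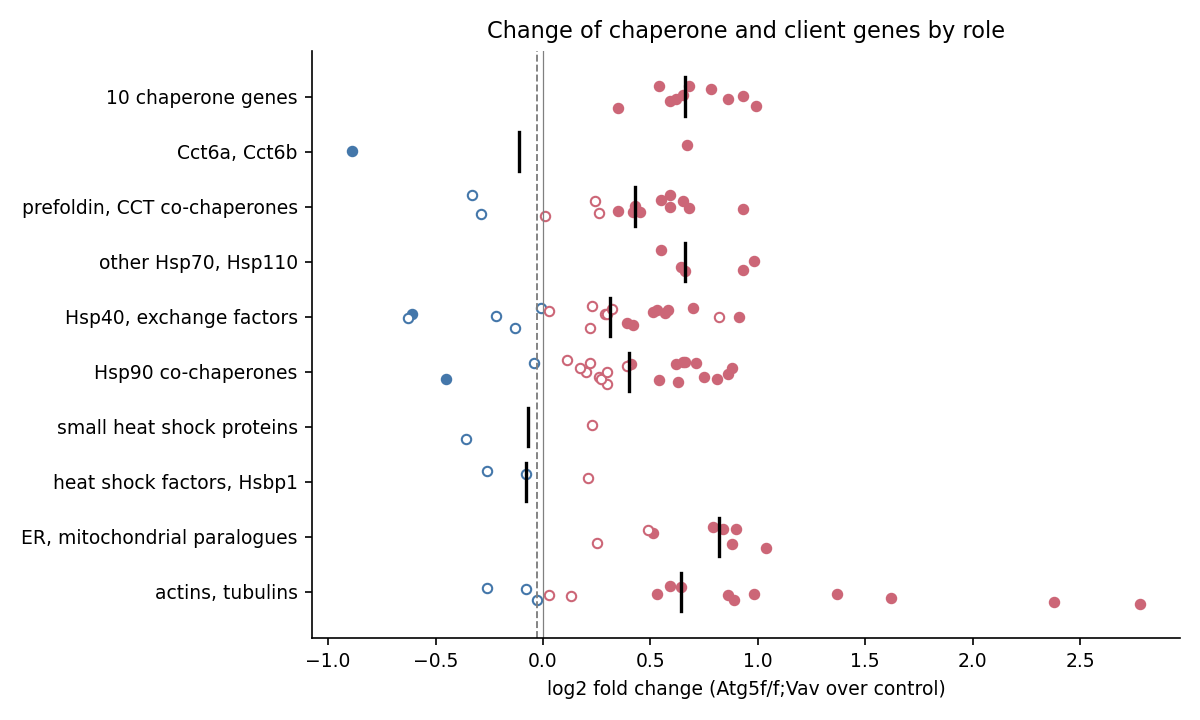
Log2 fold change (x axis) of each tested gene of the 10 chaperone genes and of 9 lists by role (y axis); filled points passed an adjusted p of 0.05, black bars are list medians and the dashed line is the median of all genes, -0.03. The paralogues of the endoplasmic reticulum and mitochondria have the highest list median, 0.82. Only 2 small heat shock proteins and 3 genes of heat shock factors and their binding protein were tested, and no point of theirs is filled.

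Markers of cell state and cell type differed between the same arrays. All 12 of 12 proliferation genes rose (median 0.86), 7 after quantile normalisation and 8 after normexp, and 0 passed without control replicate 1 or without control replicate 2 (limma; 12 and 12 at an unadjusted p under 0.05). Their summed linear signal, in units of the 75th percentile, was 139 to 180 in the controls and 231 to 303 in the Atg5f/f;Vav arrays. The summed LSK markers were 156 to 165 against 90.7 to 156, with 1 of 8 higher (Ly6a, the gene of Sca1, by 1.57 ± 0.15) and 3 lower. The lower ones were Mecom (-1.75 ± 0.34), Hlf (-1.65 ± 0.33) and Meis1 (-0.78 ± 0.25). Kit lay at 4.02 ± 0.09 and 3.64 ± 0.16 (SD, n = 3) and was not called. Cd34, the brightest of the LSK markers by group mean, weighed most in their sums and was not called either. It lay at 6.45 ± 0.09 in the controls and 6.17 ± 0.45 in the Atg5f/f;Vav arrays (SD, n = 3). The sorting markers Kit and Ly6a were well above background on all arrays.

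Of 8 erythroid markers, 2 were higher, Klf1 (2.95 ± 0.53) and Epor (2.08 ± 0.43). Another 4 were lower, Hba-a1 (-2.26 ± 0.32), Hbb-b1 (-1.92 ± 0.38), Slc4a1 (-2.29 ± 0.38) and Alas2 (-2.07 ± 0.40). The sum of the 8, in which the bright Hba-a1 probe weighs most, was 227 to 521 in the controls and 79.3 to 131 in the Atg5f/f;Vav arrays. Of 7 neutrophil markers 1 was higher and 5 lower, with sums of 173 to 273 and 212 to 265. The higher one, Mpo, had the brightest probe of this list by group mean and so weighed most in the sums. It lay at 6.56 ± 0.62 in the controls and 7.57 ± 0.12 in the Atg5f/f;Vav arrays (SD, n = 3). The 5 lower ones, S100a8, S100a9, Ltf, Camp and Ngp, had log2 changes from -1.38 to -1.21. Stromal markers summed to 10.2 to 40.7 against 6.84 to 9.61, with 6 of 7 tested and 3 lower. The 3 stood far higher in control replicates 2 and 3 than in control replicate 1. Col1a1 lay at -4.14, 3.23 and 2.95 in the controls and at -5.23, -5.16 and -5.49 in the Atg5f/f;Vav arrays. Col1a2 lay at -0.9, 3.47 and 2.9 against -1.94, -2.1 and -1.6, and Sparc at 0.63, 3.36 and 3.15 against -0.01, -0.53 and -0.09. Cxcl12, Lepr and Pdgfrb were not called. The part of proliferation or of these other cells in the change of the chaperone genes was not tested, and fewer cells of a type and less RNA per cell cannot be told apart in sorted bulk samples.

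Macrophage markers summed to 4.73 to 6.93 in the controls and 6.74 to 6.93 in the Atg5f/f;Vav arrays (5 of 6 tested), and B cell markers to 8.59 to 10.2 and 7.49 to 11.8 (6 of 6). T and NK cell markers summed to 5.40 to 9.37 and 8.55 to 9.83 (4 of 6), megakaryocyte markers to 7.69 to 9.20 and 6.95 to 7.07 (6 of 6), and mast cell markers to 7.13 to 11.6 and 10.5 to 11.3 (5 of 5). The groups overlapped in all of these but the megakaryocyte sum. Single genes were called in 3 of these lists: 1 higher among B cell markers (Cd79a, 0.95 ± 0.22), 2 higher and 3 lower among megakaryocyte markers, and 1 higher among mast cell markers. The last, Ms4a2, rose by 2.96 ± 0.30 (adjusted p = 0.00689) and passed in all 6 fits with 1 array left out. Of the marker genes called above, Ly6a and Ms4a2 also passed without control replicate 1 and without control replicate 2, and the 3 stromal genes passed without control replicate 1 but not without control replicate 2, while the other cell type markers passed in neither of these fits. The T cell markers Cd3g and Cd8a and the stromal marker Col3a1 were well above background on no array.

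The calls of the 10 genes depended on control replicates 1 and 2. Without control replicate 1, 0 of the 10 genes passed (limma; 9 of 10 at an unadjusted p under 0.05), with adjusted p-values from 0.0660 for Cct3 to 0.162 for Hsp90ab1, and 0.597% of all genes were then called higher. Without control replicate 2, 0 of 10 passed as well (limma; 10 of 10 at an unadjusted p under 0.05), with adjusted p-values from 0.0689 to 0.135 and 0.52% of all genes called higher. Without control replicate 3, and without Atg5f/f;Vav replicate 1 or 3, 9 genes passed, beside 15.5%, 16.8% and 15.2% of all genes called higher, and without Atg5f/f;Vav replicate 2, 8 passed beside 12.7%. Hsp90ab1 did not pass in any of the 6 fits, and Hsp90aa1 did not pass without Atg5f/f;Vav replicate 2 (adjusted p = 0.0588). All 10 genes stayed higher in the Atg5f/f;Vav arrays in each of these fits, as groups without overlap must. The changes ran from 0.28 for Hsp90ab1 to 1.10 for Cct3. After quantile normalisation Cct3 (0.73, adjusted p = 0.0238) and Tcp1 (0.61, adjusted p = 0.0273) passed and the other 8 did not. Under that normalisation 2886 of all 20778 genes were called higher.

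**Figure D5:**
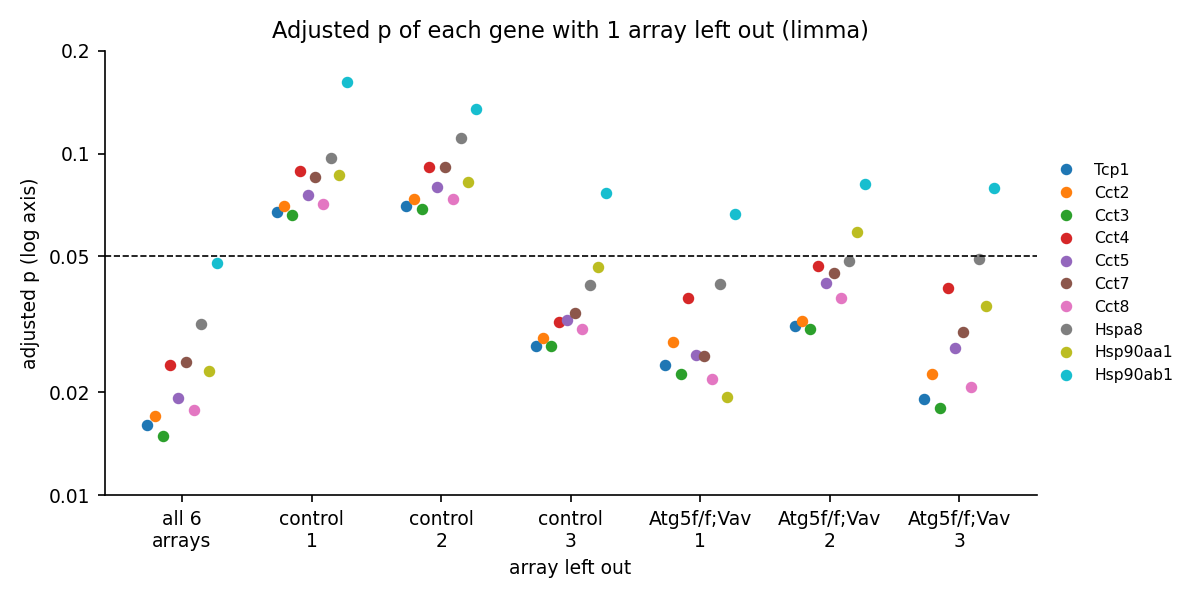
Adjusted p on a log axis (y axis) of each of the 10 genes with all 6 arrays and with 1 array left out (x axis); the dashed line is 0.05. Without control replicate 1 or 2 all 10 points lie above the line, and Hsp90ab1 lies above it whichever array is left out.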

How the data were processed

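Sorted LSK cell RNA of 3 control and 3 Atg5f/f;Vav samples was labelled with Cy3 and hybridised to Agilent arrays. The authors' intensity values came from Agilent Feature Extraction 12.0.3.1, per the labels, background-subtracted and not scaled between arrays; the deposited signal table held the same values divided by the 75th percentile over all spots of each array. Probe coordinates are on mm9.

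Outlier-flagged spots and control spots were left out, spots of a probe were averaged, and log2 intensity minus the 75th percentile of the array over non-control spots was tested with limma 3.58.1 (R 4.3.3; lmFit, eBayes, 2-sided) for the 32074 of 56605 probes that the scanner software marked as well above background on 3 or more arrays. P-values were adjusted by the Benjamini-Hochberg method over these probes, with a threshold of 0.05. A gene was represented by its tested probe of highest mean signal. The script was tested on simulated data. The genes and lists were chosen with earlier results of these data known, so no test of the set was run and the counts support no choice of theirs. Named beside the 10 genes were Atg5, Cct6a, Hspa1a, Hspa1b, Hsf1, Hsf2, up to 3 largest called rises and falls without group overlap of each list, and the 5 nearest profiles. Normalisation, background, filters, the test and single arrays were varied. The number of arrays limits the precision.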

Additional observations from a re-analysis of the deposited data

How the results depend on the processing

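All 10 genes were higher in the Atg5f/f;Vav arrays under all 19 alternatives, with log2 changes from 0.19 to 1.53, and no change of sign occurred. Alternatives that varied only the filter, the test or the replicate block gave the changes of the main fit, so no sign could turn there. With 1 array left out no sign could turn either, because the groups did not overlap. Of 190 values, 131 kept their call and 59 lost it. Against 10 genes called, 2 were called after quantile normalisation, 5 after normexp background correction and 4 with no filter on dim probes. Of all 20778 genes, 3887 were called higher in the main fit, 2886 after quantile normalisation and 3513 after normexp. With no filter it was 1618 of 37074. The methods' t-test, computed on the same values, called 10 unadjusted and 0 after Benjamini-Hochberg adjustment (adjusted p from 0.0542 to 0.0855). In limma 10 of 10 were called. Over all genes that t-test called 5189 higher unadjusted and 0 after adjustment. The median change of the 10 genes was 0.34 after quantile normalisation, 0.33 after normexp and 1.2 after scaling to the spike-in controls. The 7 detected spike-in controls were 0.51 to 0.61 lower on the log2 scale in the Atg5f/f;Vav arrays (median -0.54), so that scaling moved the median of all genes to 0.51 and that of the 10 genes relative to it stayed at 0.69, as it did with the percentile over probes detected on all arrays, where the median of all genes was -0.19. Both of these scalings take 1 value per array from every gene alike, so the relative value could not change under them. Relative to all genes the median change of the 10 genes was 0.36 after quantile normalisation and 0.34 after normexp. The cause of these differences was not tested.

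Of the genes on the chaperone and client lists, 54 were called. Calls numbered 34 after quantile normalisation, 26 with no filter and 0 by the adjusted t-test of the methods. Unadjusted, that t-test called 65, Hsf2 among them, with 1 call among the heat shock factors and 0 among the small heat shock proteins. All genes had 2886 higher and 2407 lower calls after quantile normalisation, and 1618 and 1209 of 37074 with no filter. Of all probes, 11024 were called, against 4392 after spike-in scaling (3930 higher, 462 lower), 4538 with no filter and 0 by the adjusted t-test of the methods (13541 unadjusted); the percentile over probes detected on all arrays gave 3887 higher and 8744 lower. With 1 array left out, between 0 and 9 of the 10 genes, between 1 and 49 list genes and between 251 and 10304 probes were called, the lowest values without control replicate 1 or 2 (330 and 251 probes), and the median change ran from 0.56 to 0.74. The difference between Hsp90aa1 and Hsp90ab1 ran from 0.23 to 0.42 with 1 array left out. The exact permutation p was 0.2 in each case, the smallest value possible there. The direction could not turn in those fits, as the groups did not overlap, and scaling a whole array leaves the difference unchanged. Only quantile normalisation and normexp could turn the direction. Under these the difference stayed positive, at 0.11 and 0.12 (exact permutation p = 0.5 and 0.4).

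Replicate numbers are shared by the groups, but deviations of same-numbered arrays correlated at -0.065, 0.189 and 0.111, so the numbers were not taken as pairs. With the replicate block 9 of the 10 genes were called, Hsp90ab1 missing the threshold (adjusted p = 0.0582), with 51 list genes and 10173 probes. The block left 3726 of all 20778 genes called higher.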
